A study of Mus musculus with 3 samples.

Results

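Interferon-stimulated genes are the genes that cells switch on when an interferon binds its receptor, and 39 of them were followed here across the cell classes of mouse pancreatic islets. They were chosen by symbol from textbook knowledge of the response, at a time when earlier results of these data were known. Of the 39, 38 matched 38 of the 31053 gene IDs in the feature list, and Mx2 was not analysed here. The islets came from 3 female NOD-SCID mice aged 10 to 11 weeks that had no diabetes, 1 droplet single-cell library per mouse and 1 group in all. NOD-SCID mice carry the NOD background with the scid mutation and so have almost no mature T or B cells, which makes them a model of NOD islets without adaptive autoimmunity. Because every mouse had the same strain, age range and lack of treatment, the comparisons below run between cell classes within mice and not between treatments. Islets were freed by collagenase perfusion through the bile duct, collected on a density gradient and split into single cells with an enzyme before the libraries were made.

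Type I interferons signal through IFNAR1 and IFNAR2, and interferon gamma through IFNGR1 and IFNGR2. Janus kinases at the receptors then activate transcription factors, among them the ISGF3 complex, which binds interferon-stimulated response elements in promoters; the response to interferon gamma also uses gamma-activated sites. The products sense viral RNA, block viral entry and translation, and damp the pathway itself. In islets this program is known from enteroviral infection and from autoimmune diabetes, where interferon signatures appear in and around the islets.

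The 3 libraries held between 32389170 and 57849496 UMIs, and 1090, 2609 and 3474 cells were kept from mice 1, 2 and 3. A UMI (unique molecular identifier) counts 1 captured RNA molecule at its end near the poly(A) tail, so levels were not scaled by gene length. Cells were put into classes by marker genes that include no member, and a class is called beta-like, for example, because it was rebuilt from markers. Of the 7173 cells, 5292 fell into 10 named classes. Libraries shared few barcodes, 148 between mice 1 and 2, 9 between mice 1 and 3 and 13 between mice 2 and 3, of which 14, 2 and 4 were kept cells. The 7 hormone genes (Ins1, Ins2, Iapp, Gcg, Sst, Ppy and Pyy) held 45.8% of the UMIs of kept cells, so each level below is given in CPM, UMIs per 1000000 UMIs outside those genes. Members held 93545 UMIs in kept cells, 0.151% of the UMIs outside the hormone genes.

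Promoter sequence is shown first because the members share a response and can be set beside the response element that defines it. RefSeq promoter windows on the GRCm38.p6 build were matched for 29 of the 38 members, and the 250 bases before each listed start were searched on both strands. The core of the interferon-stimulated response element, spelled GAAANNGAAA, was present for 15 of those 29 members (51.7%) and for 936 of 27025 genes with a window (3.46%). The gamma-activated site, spelled TTCNNNGAA, was present for 8 of 29 members (27.6%) and for 8.13% of genes. The windows of Isg15, Ifit3 and Gbp2 are printed as examples that hold the core in genes well above endocrine cells. The first of 3 windows of Isg20 is printed because that gene ran the other way. Ifi44, Ifit2 and Ifitm3, whose largest differences given below exceed those of Ifit3 and Gbp2, had no core in their windows. The printed examples therefore do not link the core to the level. The capitals mark the response element core in Isg15 (chr4:156200819-156201068, minus strand), Ifit3 (chr19:34583279-34583528, plus strand) and Gbp2 (chr3:142620413-142620662, plus strand), and the gamma-activated site in Isg20 (chr7:78913174-78913423, plus strand).
Isg15: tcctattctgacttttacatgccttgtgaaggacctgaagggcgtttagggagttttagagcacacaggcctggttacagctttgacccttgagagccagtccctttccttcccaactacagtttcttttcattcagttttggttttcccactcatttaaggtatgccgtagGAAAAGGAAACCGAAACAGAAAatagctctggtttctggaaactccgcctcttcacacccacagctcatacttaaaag
Ifit3: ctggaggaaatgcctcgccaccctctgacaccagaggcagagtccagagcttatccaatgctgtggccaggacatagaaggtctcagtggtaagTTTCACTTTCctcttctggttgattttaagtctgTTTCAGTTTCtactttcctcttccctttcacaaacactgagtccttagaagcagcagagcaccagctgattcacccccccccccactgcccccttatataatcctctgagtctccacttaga
Gbp2: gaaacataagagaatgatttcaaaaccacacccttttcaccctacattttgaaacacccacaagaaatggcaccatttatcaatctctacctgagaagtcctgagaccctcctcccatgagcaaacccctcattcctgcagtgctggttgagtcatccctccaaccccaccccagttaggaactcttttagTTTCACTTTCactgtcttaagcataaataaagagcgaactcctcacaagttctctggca
Isg20: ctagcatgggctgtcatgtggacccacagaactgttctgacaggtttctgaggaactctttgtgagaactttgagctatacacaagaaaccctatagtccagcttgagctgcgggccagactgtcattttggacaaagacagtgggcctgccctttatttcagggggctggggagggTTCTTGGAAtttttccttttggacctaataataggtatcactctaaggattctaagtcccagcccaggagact
In Isg15 the capitals hold 3 overlapping matches, the nearest of which ends 56 bases before the start. In Ifit3 both matches lie on the opposite strand, the nearer ending 112 bases before the start, and the window of its close copy Ifit3b also holds 2 matches, at 178 and 144 bases. The Gbp2 match ends 49 bases before the start and the Isg20 match 64 bases before it. Members with no core in their matched windows included Ifih1, Ifi44, Ifit2, Ifitm3, Irf7 and Oasl2. A match is a description of these letters and not a measured binding site.

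Endothelial-like cells carried the highest summed level of the members and beta-like cells the lowest among the 8 classes compared here, the 4 endocrine, duct-, endothelial-, stromal- and macrophage-like classes. Acinar-like and Schwann-like cells also had 10 or more cells in each mouse but were not among the classes set for the tests. Acinar-like cells lay below beta-like cells in every mouse, at 386, 428 and 807 CPM, and Schwann-like cells stood at 3709, 1976 and 3933. In mice 1, 2 and 3 the summed level was 7376, 6264 and 7638 CPM in endothelial-like cells (mean 7093 ± 730, SD, n = 3 mice). Stromal-like cells, made of pericyte-like and fibroblast-like cells, stood at 4712, 4990 and 5865, and macrophage-like cells at 6180, 2848 and 3899. The endothelial-like values lay above all other classes in each mouse, whereas the stromal-like and macrophage-like ranges overlapped. That lead holds with the stromal-like cells pooled. Fibroblast-like cells alone stood at 6567, 6783 and 7341, which overlaps the endothelial-like range and is above it in mouse 2.

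Duct-like cells stood between these classes and the endocrine cells, at 3639, 2505 and 3468 CPM. The summed level was 709, 664 and 824 in beta-like cells, the insulin producers, and 1020, 888 and 1117 in alpha-like cells, which make glucagon. It was 1055, 964 and 1158 in somatostatin-producing delta-like cells and 1215, 974 and 1246 in pancreatic polypeptide-producing gamma-like cells. Beta-like cells were lowest of the 4 endocrine classes in each mouse. Of the 547 beta-like cells of mouse 2, 293 came from a shallow cluster led by Gm26917 and Gm42418 (median 4551.5 UMIs per cell). With at least 1000 genes per cell the beta-like level was 723, 700 and 826, again the lowest of the 4. The ranges of alpha-, delta- and gamma-like cells over the mice overlapped, but within each mouse alpha-like cells were below delta-like and delta-like below gamma-like cells. Relative to the mean of beta-, alpha- and delta-like cells in the same mouse, endothelial-like cells were 7.95, 7.47 and 7.40 times higher, and duct-like cells 3.92, 2.99 and 3.36 times higher. The ratio was less even in macrophage-like cells, at 6.66, 3.40 and 3.77. Barcodes with under 500 detected genes, which stand here for free RNA, held member UMIs at 382, 375 and 961 CPM. In mouse 3 that level was higher than in beta-like cells. These were deposited barcodes, 4494, 1523 and 1336 in mice 1, 2 and 3, and may include damaged or shallow cells. The gene Gm42418 held 32.6%, 18.1% and 2.91% of their UMIs.

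**Figure D1:**
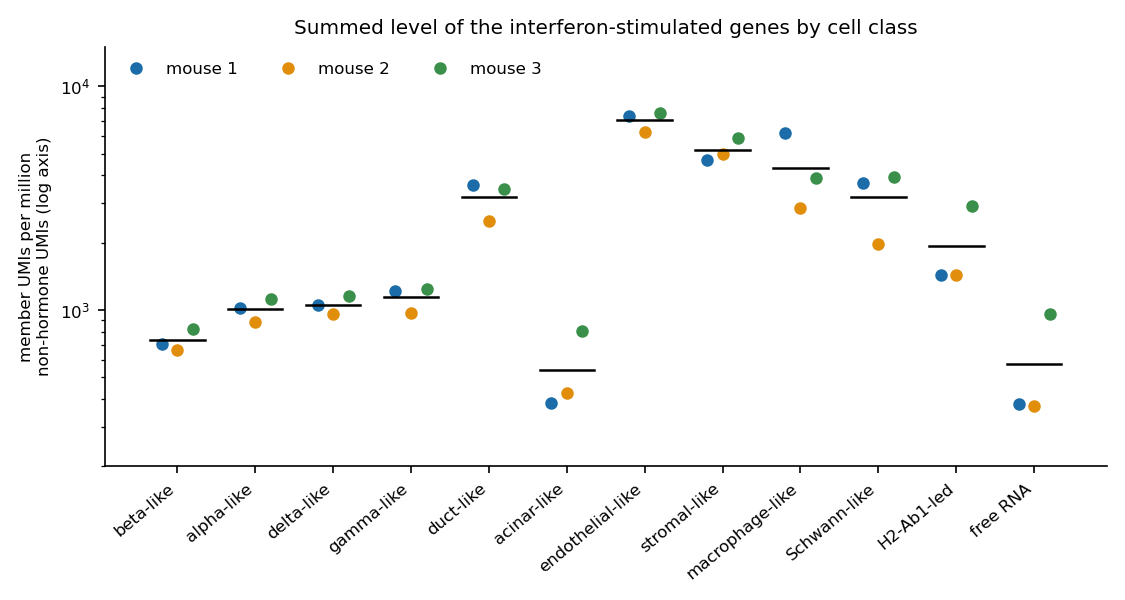
Summed member level in CPM outside the hormone genes (log axis) for each cell class and for barcodes with under 500 genes (labelled free RNA). Points are mice and lines are means over 3 mice. Endothelial-like cells sit between 6264 and 7638 in the 3 mice, and beta-like cells between 664 and 824.

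Depth differs between classes, so cells were also thinned to 2000 UMIs outside the hormone genes. At that depth a cell held on average 14.1 ± 1.82 member UMIs in the endothelial-like class (SD over 3 mice), 9.78 ± 1.43 in the stromal-like class and 7.52 ± 1.67 in the macrophage-like class. Duct-like cells held 6.09 ± 1.04 and gamma-like cells 2.45 ± 0.506. Alpha-like, delta-like and beta-like cells held 1.90 ± 0.280, 1.86 ± 0.279 and 1.39 ± 0.361. The order of the classes was that of the undivided counts, except that delta-like and alpha-like cells changed places within their spread. Cells too shallow to be thinned were left out, 130 of the beta-like, 59 alpha-like, 127 delta-like, 29 gamma-like, 103 duct-like, 37 endothelial-like, 23 stromal-like and 40 macrophage-like cells. Every thinned endothelial-like cell held at least 3 member UMIs, compared with 11.5% to 25.2% of beta-like cells in the 3 mice. At least 1 member UMI was found in 65.2% to 84.2% of thinned beta-like cells and in 82.4% to 94.6% of beta-like cells without thinning. Free RNA may add to such shares in every class.

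Ifitm2 and Ifitm3 made up much of these sums. The pair, which codes for small membrane proteins that stop viruses fusing with the cell, held on average 47.1% of the member UMIs in endothelial-like cells, 64.3% in stromal-like cells, 34% in duct-like cells and 16.1% in macrophage-like cells. Without them the mean summed level was 3743 CPM in endothelial-like cells, 3585 in macrophage-like cells, 2112 in duct-like cells and 1825 in stromal-like cells. The 2 highest means then differed by less than the SD over mice of the macrophage-like class (1293), and the stromal-like class moved from the second place to the fourth. In beta-, alpha-, delta- and gamma-like cells the share of the pair lay between 17.7% and 20.9%.

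Each member was then tested with edgeR's quasi-likelihood test on UMIs summed per mouse and class, with the mouse as a block and Benjamini-Hochberg adjustment over all 12501 genes tested; a gene passed at an adjusted p under 0.05. Of the 38 members, 37 were tested, since Oas3 was too low. A member that was tested only because 1 class is high had to differ, so the counts that follow describe the 37 and do not extend to the rest. The 4 comparisons of a non-endocrine class use the same beta-, alpha- and delta-like sums as comparator. In endothelial-like cells 33 members were higher (28.7% of all genes tested were) and 2 were lower (31%). In macrophage-like cells 36 were higher (24.6%) and 1 was lower (26.7%). In stromal-like cells 28 were higher (24.6%) and 2 lower (24.6%), and in duct-like cells 29 were higher (31.6%) and 2 lower (30.9%). The median log2 difference over the tested members was 3.19 in endothelial-like, 3.82 in macrophage-like and 2.21 in duct-like cells, where that of all genes was -0.12, -0.23 and -0.01. In stromal-like cells it was 2.22 over the 36 members other than Mx1, which had no UMI there, against -0.10 over all genes. There were 25 members higher in all 4 classes, 6 that were higher in 3, and 1, Isg20, that was lower in all 4.

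**Figure D2:**
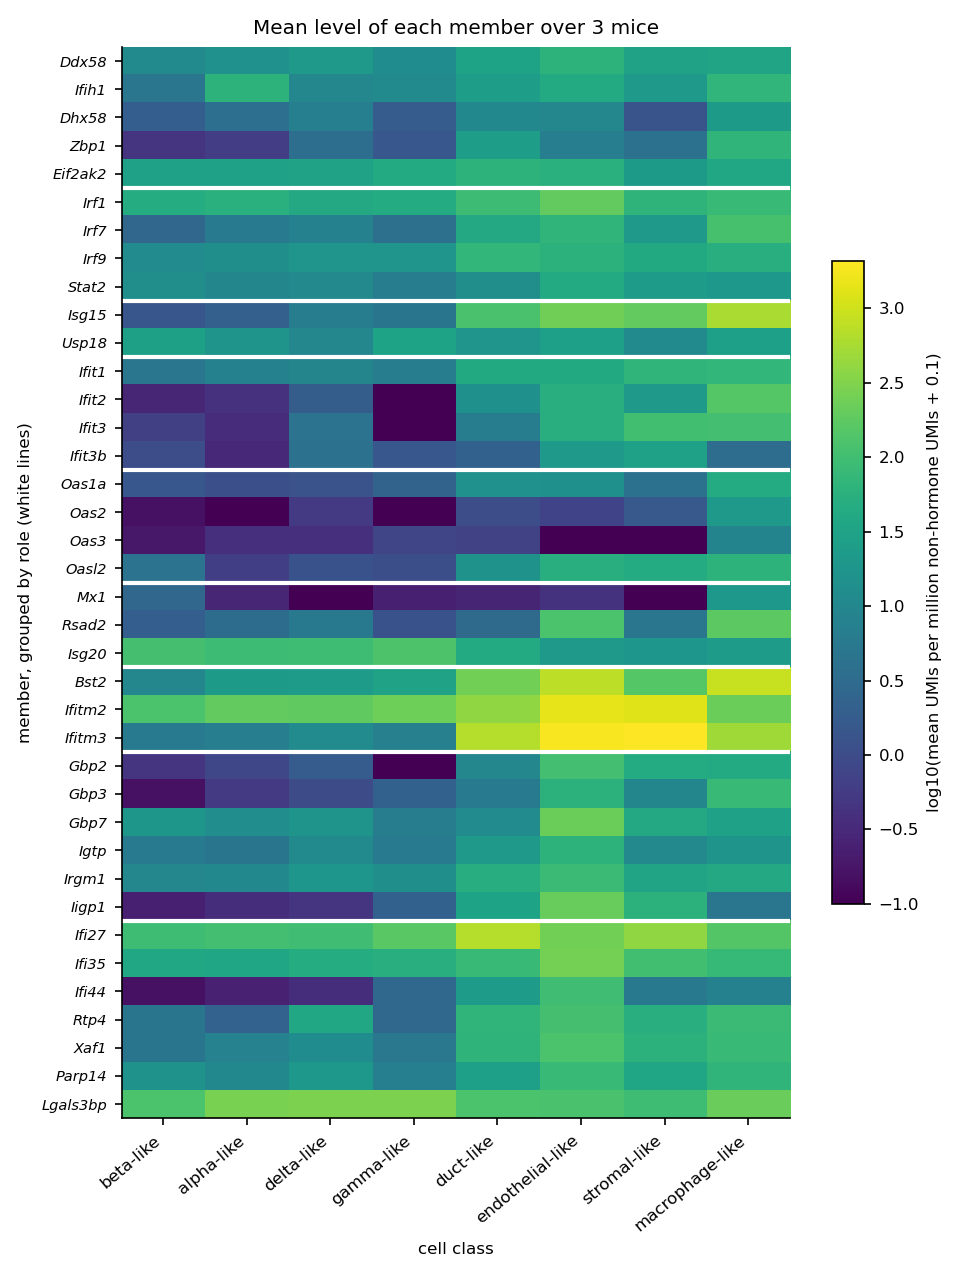
Mean level of each of the 38 members (rows, grouped by role) in 8 cell classes (columns) over 3 mice, as log10 of the level in CPM plus 0.1. Most rows are brightest in the endothelial-like or macrophage-like column, and the Isg20 row is brighter in the 4 endocrine columns than in the others.

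Among the same 8 classes, the class with the highest mean level was macrophage-like for 16 members, endothelial-like for 14, duct-like and gamma-like for 3 each, and stromal-like for 2. For 18 of the 38 members (47.4%) the 3 mice of the highest class lay above all mice of the second class; the same was true of 31.7% of all 16737 genes with at least 10 UMIs. These were 9 of the endothelial-like, 8 of the macrophage-like and 1 of the duct-like members. Among genes of all kinds, macrophage-like cells were highest for 9.72% and endothelial-like cells for 13.7%.

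The RNA and nucleic acid sensors comprise RIG-I (Ddx58), MDA5 (Ifih1), their regulator LGP2 (Dhx58), the Z-form nucleic acid receptor Zbp1 and the kinase PKR (Eif2ak2). All 5 were higher in endothelial-, macrophage- and duct-like cells, and 3 in stromal-like cells. At 2000 UMIs per cell the duct-like differences of Ifih1 and Ddx58 turned to -0.41 and -0.014 and the stromal-like ones of Zbp1 and Ddx58 to -1.20 and -0.44, none of which passed, and the endothelial-like call of Dhx58 was lost without mouse 3 (adjusted p = 0.111). Ifih1, which detects long double-stranded RNA such as that made by enteroviruses, had a level of 60.6, 57.7 and 65.7 CPM in alpha-like cells of mice 1, 2 and 3. In beta-like cells it was 1.84, 6.36 and 6.47, and in delta-like cells 10.5, 7.11 and 11.8. The alpha-like values were above those of the other endocrine classes in each mouse and overlapped those of macrophage-like cells, at 57.8, 66.2 and 87 CPM. The alpha-like mean of Ifih1, 61.3 CPM, was above the endothelial-, duct- and stromal-like means, although these classes were called higher against the endocrine average. In sum the 5 sensors stood at a mean of 80.7 CPM in stromal-like and 110.6 in alpha-like cells. Macrophage-like Zbp1 stood at 120, 38.6 and 41.6 CPM, and the 9 beta-, alpha- and delta-like sums together held 39 UMIs of it (log2 difference 6.70, SE 0.40, adjusted p = 9.75e-21). Duct-like cells followed with 33.5, 14.9 and 29.4 (4.85, SE 0.34, adjusted p = 4.93e-18), under the macrophage-like range in each mouse. Ddx58 was highest in endothelial-like cells, at 63.3, 61.4 and 57.8 CPM against 10.6, 10.9 and 11.6 in beta-like cells, and those ranges were far apart. In stromal-like cells Dhx58 (3 UMIs, adjusted p = 0.530) and Eif2ak2 (-0.09, adjusted p = 0.817) did not pass, and the calls for Ddx58, Ifih1 and Zbp1 there were lost when a mouse was left out (adjusted p up to 0.0883, 0.606 and 0.283).

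Among the transcription factors, Irf7 amplifies interferon production, Irf9 and Stat2 code for subunits of ISGF3, and Irf1 is induced mainly by interferon gamma. All 4 were higher in endothelial- and macrophage-like cells and 3 in each of stromal- and duct-like cells, where Irf1 (log2 difference 0.34, adjusted p = 0.528) and Stat2 (0.19, adjusted p = 0.532) respectively did not pass. The calls of Stat2 in macrophage-like and Irf7 in stromal-like cells were lost without mouse 3 (adjusted p = 0.113 and 0.121), and that of Stat2 in stromal-like cells without mouse 2 (adjusted p = 0.137). Macrophage-like Irf7 was 240, 46.9 and 59.3 CPM, a spread in which mouse 1 stood apart. It was 73.9, 46.1 and 82.8 in endothelial-like cells and between 1.81 and 10.7 in beta-, alpha- and delta-like cells (log2 difference 4.70 in macrophage-like cells, 4.08 without mouse 1, and 3.81 in endothelial-like cells). In mouse 1, 3 of 23 macrophage-like cells held 43 of 54 Irf7 UMIs (79.6%). Irf1 was 150, 186 and 230 in endothelial-like cells and 46.1, 28.4 and 69.1 in beta-like cells, and the classes did not overlap. Irf9 was highest in duct-like cells, at 92.4, 63 and 59.4 CPM against 9.21, 12.7 and 14.2 in beta-like cells, and overlapped its endothelial-like range.

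The ISG15 system joins the ubiquitin-like protein ISG15 with USP18, the protease that removes it and also blunts receptor signalling; the members behaved differently. Isg15 was 636, 339 and 756 CPM in macrophage-like cells, 245, 227 and 257 in endothelial-like cells, 223, 195 and 163 in stromal-like cells and 154, 91.7 and 108 in duct-like cells. In beta-like cells it was 0.461, 1.79 and 1.81, and the 9 beta-, alpha- and delta-like sums held 104 UMIs in all. The log2 differences were 8.31 (SE 0.23, adjusted p = 2.02e-17), 6.58 (SE 0.25, adjusted p = 2.81e-15), 6.14 (SE 0.31, adjusted p = 5.46e-13) and 5.33 (SE 0.25, adjusted p = 8.99e-14). The ranges of all 4 classes lay above those of every endocrine class. In mouse 1, 3 of 23 macrophage-like cells held 96 of 143 Isg15 UMIs (67.1%). Usp18 was 22.6, 28.1 and 34.7 in beta-like cells and 31.7, 33.7 and 31 in gamma-like cells, close to the 19, 29 and 33.7 of endothelial-like cells. It did not pass in stromal-like (log2 difference -0.59, adjusted p = 0.276) or duct-like cells (-0.06, adjusted p = 0.841), and its calls in macrophage-like (0.90, adjusted p = 0.0325) and endothelial-like cells (0.84, adjusted p = 0.00481) were lost without mouse 1 or mouse 3 in the first (0.19 and 1.27, adjusted p = 0.73 and 0.052) and without mouse 3 in the second (0.71, adjusted p = 0.15).

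**Figure D3:**
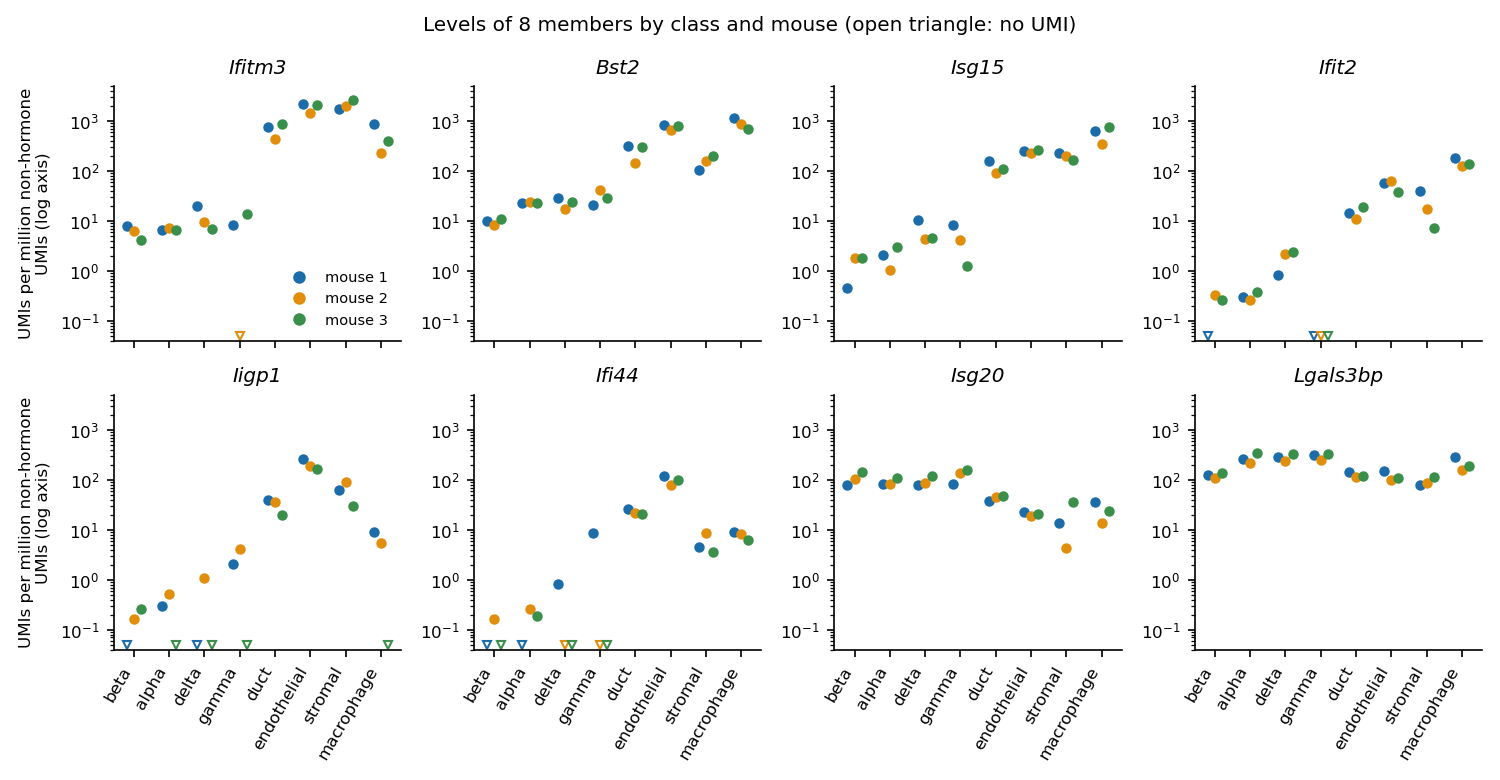
Levels of 8 members in CPM (log axis) by class, 1 point per mouse, with open triangles where no UMI was counted. Isg15 lies between 91.7 and 756 in the 4 non-endocrine classes and at most 10.5 in the endocrine ones, while Isg20 and Lgals3bp are as high or higher in endocrine cells.

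The IFIT family binds foreign RNA and blocks its translation, and its 4 members lie together on chromosome 19. All 4 were higher in endothelial-, macrophage- and stromal-like cells and 3 in duct-like cells. Ifit2 was 182, 127 and 137 CPM in macrophage-like cells and 57, 63.2 and 37.6 in endothelial-like cells, without overlap between these classes. In beta-like cells it was 0, 0.326 and 0.259, and the 9 endocrine sums held 25 UMIs (macrophage-like log2 difference 8.45, SE 0.28, adjusted p = 1.32e-30). Duct-like cells had 14.2, 11 and 18.9 (4.47, SE 0.36), between the others. Ifit3 was 262, 24.8 and 37.8 in macrophage-like cells and 237, 42.3 and 26.9 in stromal-like cells (log2 difference 6.90, SE 0.43, adjusted p = 2.34e-13, and 6.35, SE 0.45, adjusted p = 3.01e-12). Both classes were high in mouse 1. Without that mouse the differences were 6.30 and 5.57. Few cells carried these counts: in mouse 1, 3 of 23 macrophage-like cells held 55 of 59 Ifit3 UMIs (93.2%), and 3 of 20 stromal-like cells held 47 of 53 (88.7%). Stromal-like Ifit1 of that mouse came entirely from 3 cells (35 of 35 UMIs; log2 difference 2.81, and 1.63 without mouse 1). Ifit3 and Ifit3b are near-identical copies whose reads may have been split or dropped, and the macrophage-like difference of Ifit3b changed sign without mouse 3 (3.37 to -4.02, the latter not passing).

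The OAS family makes oligoadenylates that activate RNase L, and its 4 members lie on chromosome 5. Oas1a and Oasl2 were higher in all 4 non-endocrine classes, though Oas1a in stromal-like cells did not pass without mouse 3 (log2 difference 2.12 with all mice and 0.99 without it). Oasl2 was 97.8, 44.2 and 45.4 CPM in macrophage-like, 57, 44.4 and 49.1 in endothelial-like and 89.2, 16.9 and 31.8 in stromal-like cells (stromal-like log2 difference 4.94, SE 0.40, adjusted p = 1.89e-15), with mouse 1 highest in each. Oas2 was 31.1, 11 and 18.9 CPM in macrophage-like cells, and the 9 endocrine sums held 4 UMIs of it (log2 difference 7.54, SE 0.68, adjusted p = 1.81e-13, with 6.84 to 8.57 when mice 3 and 2 were left out in turn). It did not pass in endothelial-like (2 UMIs, adjusted p = 0.0531) or stromal-like cells (1 UMI). Oas3, not tested, was 13.3, 2.76 and 10.1 in macrophage-like cells and at most 2.11 CPM in every mouse of the other 7 classes. Oas1a has several close relatives in the mouse, so its reads may be shared among them.

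Mx1 blocks viral replication, Rsad2 (viperin) makes a chain-terminating nucleotide, and Isg20 is an RNA exonuclease. Mx1 was 44.5, 8.28 and 7.57 CPM in macrophage-like cells, and its highest value in duct-, endothelial- and stromal-like cells was 0.963. Rsad2 was 106, 142 and 126 in endothelial-like cells, an even level over the mice, and 382, 8.28 and 110 in macrophage-like cells, an uneven one. It did not pass in duct-like or stromal-like cells. In mouse 1, 3 of 23 macrophage-like cells held 80 of 86 Rsad2 UMIs (93.0%), and without mouse 1 the log2 difference in macrophage-like cells went from 5.91 to 5.23. Isg20 ran the other way: 79.7, 106 and 146 CPM in beta-like cells, 82.8, 81.9 and 111 in alpha-like cells, and 23.2, 18.8 and 21.2 in endothelial-like cells. Its log2 difference was -2.19 in endothelial-like (SE 0.20, adjusted p = 7.69e-14), -1.96 in stromal-like (SE 0.23, adjusted p = 2.89e-10; -3.18 without mouse 3), -1.52 in macrophage-like (adjusted p = 5.24e-07) and -1.23 in duct-like cells (SE 0.12, adjusted p = 9.83e-13). The endocrine ranges of Isg20 lay above those of all 4 other classes.

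The membrane restriction factors Bst2 (tetherin, which holds budding viruses at the cell surface), Ifitm2 and Ifitm3 were higher in all 4 non-endocrine classes. Ifitm3 was 2150, 1456 and 2131 CPM in endothelial-like cells, 1696, 1955 and 2576 in stromal-like cells, 767, 443 and 857 in duct-like cells and 876, 226 and 395 in macrophage-like cells. It was 7.83, 6.20 and 4.14 in beta-like cells, and the log2 differences were 8.10 (SE 0.26, adjusted p = 7.81e-14), 8.23 (SE 0.26, adjusted p = 1.20e-13), 6.42 and 6.49. Ifitm2 differed less, with 1334, 1417 and 1561 CPM in endothelial-like cells and 136, 105 and 128 in beta-like cells (log2 difference 3.27, SE 0.10, adjusted p = 1.79e-33). For both genes every endothelial-like and stromal-like value lay above every endocrine value. In mouse 1, 3 of 23 macrophage-like cells held 143 of 197 Ifitm3 UMIs (72.6%). The 2 genes are close copies, so some reads may be shared between them. Bst2 was 1138, 856 and 701 in macrophage-like cells, 831, 667 and 787 in endothelial-like cells and 10.1, 8.16 and 10.9 in beta-like cells, so macrophage- and endothelial-like cells overlapped and beta-like cells lay apart.

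The interferon-inducible GTPases attack the vacuoles in which pathogens hide, and in sum they stood at 825, 633 and 765 CPM in endothelial-like cells. Macrophage-like cells had 289, 132 and 237, stromal-like cells 178, 212 and 203, duct-like cells 150, 101 and 137, and the endocrine class means lay between 29.2 and 50.4. Endothelial-like cells were thus above all other classes in each mouse. Iigp1 was 262, 186 and 166 in endothelial-like cells, 62.5, 88.9 and 29.4 in stromal-like cells and 40.3, 35.3 and 19.4 in duct-like cells, against 7 UMIs in all 9 endocrine sums. Its log2 difference was 9.67 in endothelial-like cells (SE 0.27, adjusted p = 4.60e-33; 10.74 without mouse 2), 7.72 in stromal-like (8.41 without mouse 2) and 6.74 in duct-like cells (7.68 without mouse 2). In macrophage-like cells it was 8.89, 5.52 and 0 CPM, and the call there was lost without mouse 1 and the difference turned to -0.48, not passing, at 2000 UMIs per cell. Gbp2 was 95, 81.9 and 147 in endothelial-like cells (log2 difference 7.29, SE 0.38, adjusted p = 2.07e-12; 6.65 without mouse 3) and 49.1, 25.4 and 60 in stromal-like cells (5.97, SE 0.56). Gbp3 was 88.9, 63.5 and 101 in macrophage-like and 67.5, 54.6 and 56.8 in endothelial-like cells, with 16 UMIs in the endocrine sums (log2 differences 8.35 and 7.30; 7.64 to 9.18 and up to 8.02 when 1 mouse was left out). Gbp7 was 238, 205 and 215 in endothelial-like cells and at most 59.3 CPM in every mouse of the other 7 classes, including 21.2, 14.2 and 21.2 in beta-like cells. Guanylate-binding proteins are a family of close copies, so single members are uncertain where reads match more than 1 of them.

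Of the other interferon-induced members, Ifi44 was 120, 78.5 and 97.2 CPM in endothelial-like cells and 26.1, 22.1 and 21.1 in duct-like cells, against 5 UMIs in the endocrine sums (log2 difference 9.13, SE 0.34, adjusted p = 1.19e-29, and 6.85, SE 0.40, adjusted p = 5.46e-21). Both ranges were above those of macrophage-like cells, at 8.89, 8.28 and 6.31. Ifi27 was highest in duct-like cells, at 818, 594 and 669, with no overlap with the next class, stromal-like cells, at 379, 461 and 365. Lgals3bp, a secreted galectin-3-binding glycoprotein, was 258, 222 and 351 in alpha-like cells and 152, 101 and 111 in endothelial-like cells. It was lower in endothelial-like (log2 difference -0.73, adjusted p = 3.61e-06), stromal-like (-1.04, SE 0.15, adjusted p = 9.06e-08) and duct-like cells (-0.85, adjusted p = 7.14e-09) and higher in macrophage-like cells (0.54, adjusted p = 0.000349), although the last turned to -0.08 when library size was taken outside the hormone genes.

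Between endocrine classes fewer members passed than against the other classes. Between beta-like and alpha-like cells 5 members were higher in beta-like cells (20.7% of all genes) and 8 were lower (20.7%). Between beta-like and delta-like cells 4 were higher (19.1%) and 16 were lower (18.7%), and between alpha-like and delta-like cells 3 were higher (17.4%) and 8 lower (16.8%). The median log2 difference was -0.33 for beta-like against alpha-like cells over 36 members, -0.76 for beta-like against delta-like over 37 and -0.31 for alpha-like against delta-like over 35, and that of all genes lay between -0.01 and 0.00. The 16 members lower in beta-like than in delta-like cells are 43.2% of the 37 tested. At 2000 UMIs per cell 4 of 31 members tested were lower there (12.9%), close to the 12.4% of all genes. The excess in calls was thus not seen at equal depth. The median log2 difference of those 31 members was still -0.69, where that of all genes was -0.01. Far fewer UMIs entered the thinned sums, and whether this or the equal depth removed the calls was not tested. These pairs share sums with one another. The count of members higher in beta-like than in alpha-like cells was 3 with DESeq2, 2 with no mouse block, 2 at 2000 UMIs per cell, and 1 to 5 when 1 mouse was left out.

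Ifih1, whose per-mouse values are given above, set alpha-like cells apart. It was lower in beta-like than in alpha-like cells by 3.63 on the log2 scale in the fitted value (log2 difference -3.63, SE 0.18, adjusted p = 2.12e-23) and higher in alpha-like than in delta-like cells (2.86, SE 0.18, adjusted p = 4.66e-19). Both calls held under each alternative run. Lgals3bp was 124, 108 and 136 CPM in beta-like cells and 287, 241 and 332 in delta-like cells, and it was lower in beta-like cells than in either neighbour (-1.34, SE 0.13, and -1.15, SE 0.13). Ifitm2 was also lower in beta-like than in alpha-like cells, at 178, 194 and 200 CPM in the latter (-0.82, SE 0.14, adjusted p = 1.32e-06). In each of these genes the beta-like range lay under the other range.

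Delta-like cells stood out in Rtp4, a chaperone that brings receptors to the cell surface. It was 40.5, 30.1 and 41.9 CPM there, 6.45, 4.57 and 3.1 in beta-like cells and 4.45, 1.04 and 0.928 in alpha-like cells. The log2 difference was -2.93 for beta-like (SE 0.31, adjusted p = 3.05e-08) and -4.27 for alpha-like cells (SE 0.34, adjusted p = 3.19e-10; -4.99 without mouse 1 and -3.50 without mouse 3). Ifit3 was 4.86, 3.83 and 4.38 in delta-like cells and at most 0.921 in beta- and alpha-like cells (-2.96 and -3.81). Zbp1 was 2.43, 3.83 and 4.16 there and also at most 0.921 in the others; beta-like cells had 3 UMIs in all, and the delta-like level was 14.1 times theirs (exact 95% interval 4.37 to 72.4, counting error only; adjusted p = 8.64e-05). The alpha-like difference, -2.84, did not pass without mouse 3. Each of these delta-like ranges was above both others. The summed level of 8 macrophage markers was 290, 243 and 291 CPM in delta-like cells, 68.6, 47.8 and 48.4 in beta-like and 73, 48.6 and 94.9 in alpha-like cells, against 18348, 17995 and 24760 in macrophage-like cells. In delta-like cells that sum was almost wholly C1qa, at 278, 239 and 281, while C1qb was at most 3.24, Csf1r at most 1.97, and Adgre1 and Mrc1 had no UMI.

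Beta-like cells were above the other endocrine classes in a few members at low level. Mx1 was 1.84, 3.26 and 2.59 CPM there, 34 UMIs in all, with 2 UMIs in alpha-like and none in delta-like cells. It was at least 7.77-fold higher than in delta-like cells, taking 3 UMIs over the group as the floor (adjusted p = 0.000158), and 22.9 times the alpha-like level, with an exact 95% interval of 5.87 to 197 for counting error only (adjusted p = 5.01e-05). Without mouse 3 Mx1 was too low to be tested. Oasl2 was 5.07, 2.61 and 5.43 in beta-like and 0.891, 0.26 and 0.464 in alpha-like cells (2.83, SE 0.51, adjusted p = 6.76e-06), and its call against delta-like cells (2.05) was lost without mouse 3 (1.41, adjusted p = 0.17). Usp18 exceeded its delta-like level of 5.67, 13.1 and 11.2 (1.54, SE 0.24, adjusted p = 7.77e-07), and the beta-like range lay above it.

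**Figure D4:**
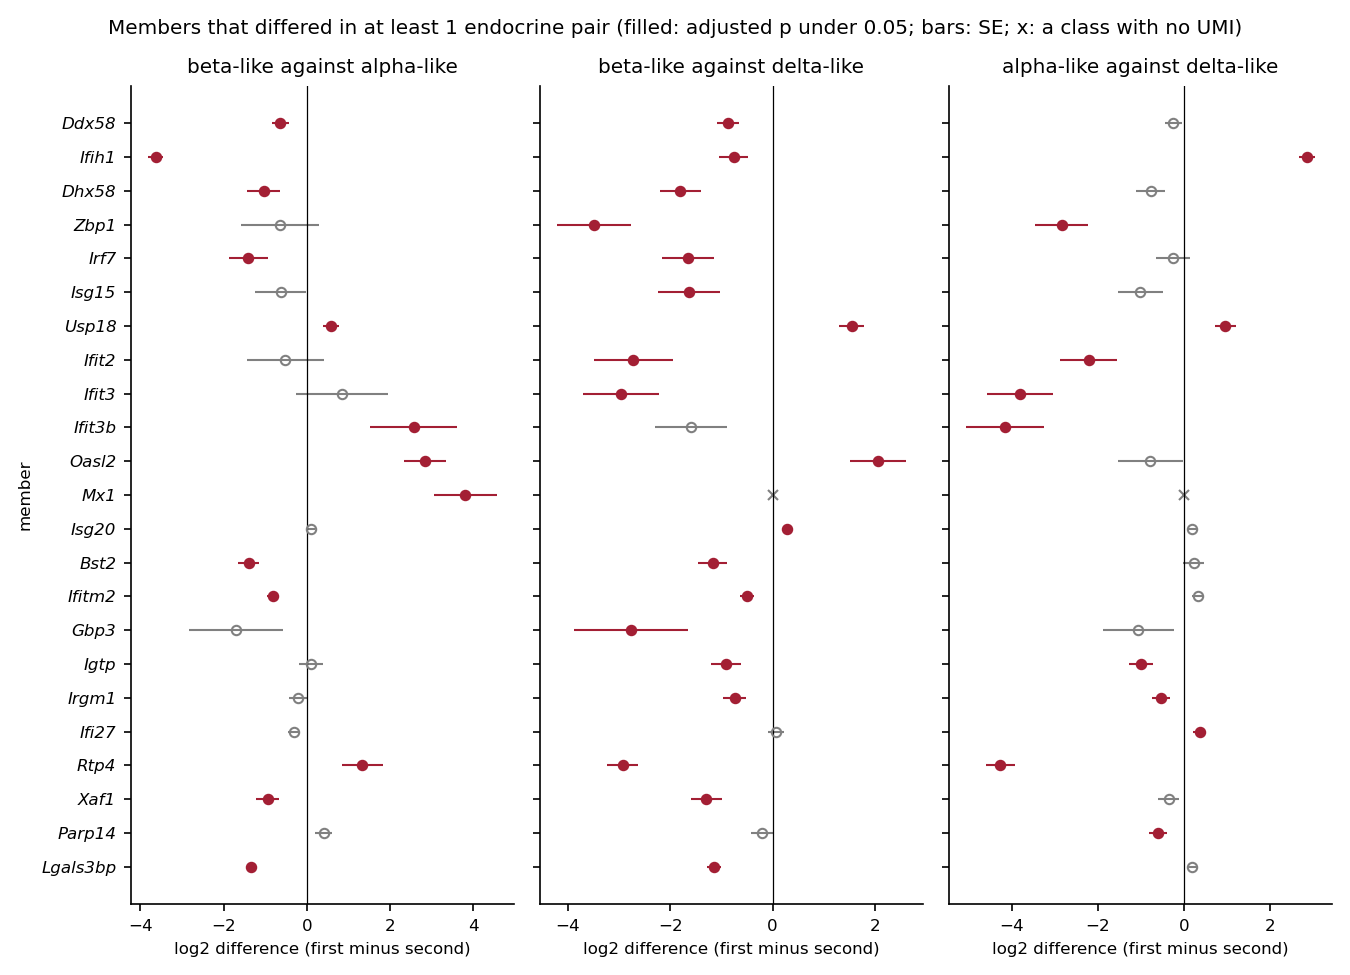
Log2 difference (first class minus second) with its SE for the 23 members that passed in at least 1 of the 3 endocrine pairs; filled points passed, open points did not, and a cross marks a pair in which a class had no UMI and no fitted value is drawn. Ifih1 lies at -3.63 in the first panel and 2.86 in the third, and Rtp4 at -2.93 and -4.27 against delta-like cells.

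The remaining called members of these pairs lay at low levels or differed by smaller steps. Bst2, Irf7, Dhx58, Xaf1 and Ddx58 were lower in beta-like cells than in both alpha-like and delta-like cells, with log2 differences between -0.63 and -1.81. Against alpha-like cells the call was lost for Dhx58 without mouse 1 or mouse 3 (adjusted p = 0.171 and 0.238), for Ddx58 without mouse 2 (0.125) and for Xaf1 without mouse 3 (0.0874). Bst2 was 22.3, 23.7 and 22.3 CPM in alpha-like and 29.1, 17.5 and 24.1 in delta-like cells, each above its beta-like range of 8.16 to 10.9 (-1.40 and -1.17, the latter not passing without mouse 3). Irf7 (3.69, 2.28 and 1.81 in beta-like, 5.34, 4.42 and 7.88 in alpha-like and 4.05, 8.75 and 10.7 in delta-like cells) lost both calls without mouse 2 or mouse 3. Dhx58 was 1.38, 2.45 and 1.81 in beta-like and 3.24, 9.84 and 8.55 in delta-like cells (-1.81, SE 0.40, adjusted p = 0.000218).

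Against delta-like cells, Ifit2, Gbp3, Isg15, Igtp, Irgm1, Ifitm2 and Ifih1 were also lower in beta-like cells. Ifit2 was 0.809, 2.19 and 2.41 CPM in delta-like cells, 7.78 times the level of the 3 UMIs in beta-like cells (exact 95% interval 2.23 to 41.7). Gbp3 was 0, 1.64 and 1.10, with 1 UMI in beta-like cells, and these ranges overlapped. All 7 of these calls were lost when 1 mouse was left out: Ifih1 and Isg15 without mouse 1 (adjusted p = 0.160 and 0.142), Gbp3, Isg15, Igtp, Irgm1 and Ifitm2 without mouse 2 (0.115, 0.0647, 0.166, 0.0819 and 0.0786), and Ifit2, Gbp3 and Ifih1 without mouse 3 (0.0907, 0.223 and 0.204).

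Alpha-like cells were lower than delta-like cells in Ifit2, Ifit3b, Igtp, Irgm1 and Parp14 as well. The call of Irgm1 was lost whichever mouse was left out (adjusted p = 0.114, 0.149 and 0.106), and its difference turned from -0.53 to 0.052 at 2000 UMIs per cell. Ifit2 did not pass without mouse 2 or mouse 3 (0.0532 and 0.164), nor Parp14 without mouse 1 or mouse 2 (0.0611 and 0.271). Ifit3b was 0.594, 0 and 0 CPM in alpha-like and 5.67, 4.92 and 1.97 in delta-like cells, without overlap. The 2 alpha-like UMIs put the delta-like level 24.6 times higher (exact 95% interval 6.13 to 214, counting error only; adjusted p = 0.00042). Igtp was 3.86, 4.16 and 5.75 in alpha-like and 11.3, 12.6 and 11.2 in delta-like cells (-1, SE 0.28), and also did not overlap, though the call was lost without mouse 2. Ifit3b was 8.75 times higher in beta-like than in alpha-like cells (exact 95% interval 1.98 to 79.9). Rtp4 and Usp18 were also higher there (log2 differences 1.33 and 0.58), Isg20 higher in beta-like than in delta-like cells (0.29), and Usp18 and Ifi27 higher in alpha-like than in delta-like cells (0.97 and 0.38), and each of these 6 calls was lost when mouse 3 was left out. Without mouse 2 all but the last Usp18 call were lost too, and that of Ifi27 also without mouse 1. Of the 13, 20 and 11 members called in the 3 pairs, 5, 7 and 3 were called under every alternative that tested them.

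Within the stromal-like class the fibroblast-like cells held more member UMIs than the pericyte-like cells. The summed level was 6567, 6783 and 7341 CPM in fibroblast-like cells, from 6, 13 and 42 cells, and 3373, 3835 and 4505 in pericyte-like cells, from 14, 27 and 114. The ranges did not overlap; with so few cells in mice 1 and 2 this was not tested. The fibroblast-like range did overlap that of endothelial-like cells, at 7376, 6264 and 7638. Mice also differed within classes: of the members with at least 10 UMIs, mouse 2 was lowest for 27 of 36 in macrophage-like cells, 23 of 35 in duct-like cells and 20 of 35 in endothelial-like cells, and mouse 1, with 23 macrophage-like cells, was highest for 27 of 36 in that class. The same order was not counted over all genes, so these counts do not set the members apart from other genes.

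Single cells with several early response genes were sought with Isg15, Usp18, Ifit1, Ifit2, Ifit3, Ifit3b and Rsad2 at 2000 UMIs per cell. At least 3 of these 7 genes were seen in 20 of 149 macrophage-like cells (13.4%). By mouse the shares were 25% (4 of 16 cells), 4.65% (2 of 43) and 15.6% (14 of 90) in mice 1, 2 and 3. They were seen in 17 of 341 endothelial-like cells (4.99%), 6 of 193 stromal-like cells, 7 of 75 Schwann-like cells (9.33%) and 1 of 292 duct-like cells. An unnamed cluster led by H2-Ab1, described below, had 5 of 82 such cells (6.10%). None of 921 beta-like, 1358 alpha-like, 860 delta-like or 242 gamma-like cells qualified. The 20 macrophage-like cells held 43.4% of the UMIs of these genes in their class, and the 17 endothelial-like cells 28.1%, so in both classes most of these UMIs lay in cells with fewer of the genes.

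**Figure D5:**
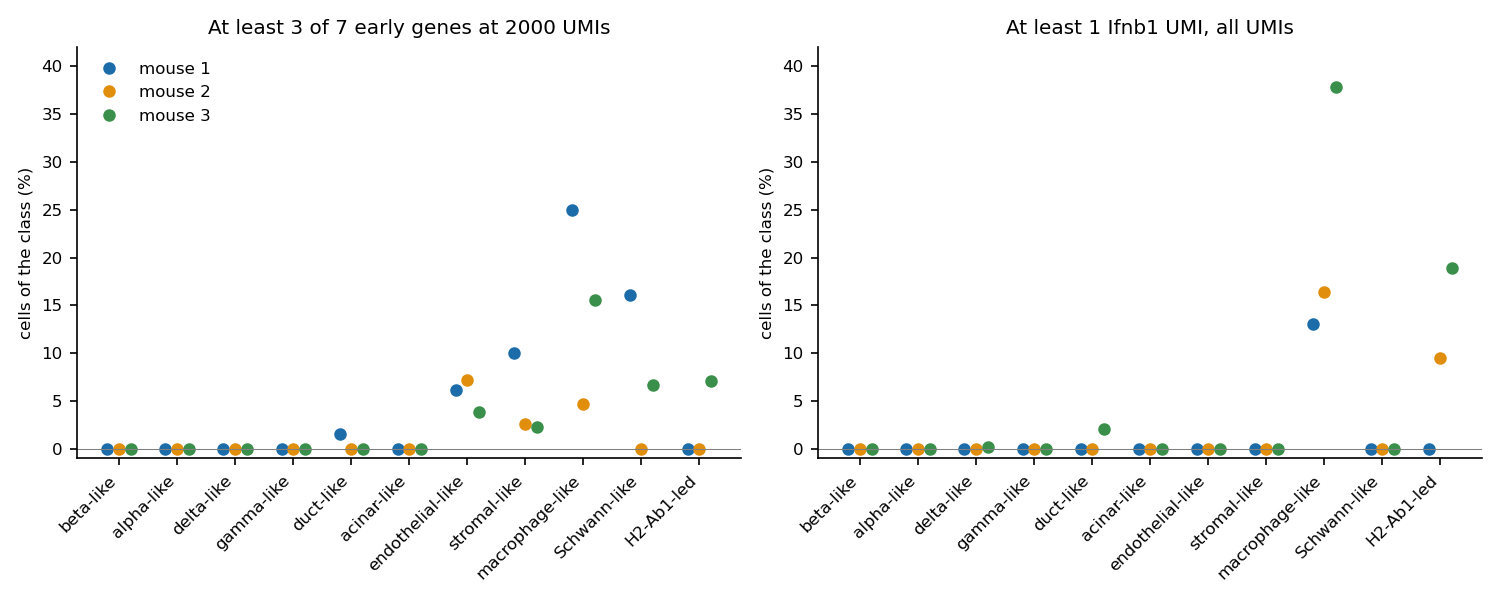
Share of the cells of a class (%) per mouse with at least 3 of the 7 early genes at 2000 UMIs (left) and with at least 1 Ifnb1 UMI at full depth (right). Macrophage-like cells reach 25% in mouse 1 on the left (4 of 16 cells) and 37.8% in mouse 3 on the right. The 4 endocrine classes lie at or near 0 in both.

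Upstream of the members, most interferon RNA was found in macrophage-like cells and in an unnamed cluster led by H2-Ab1, a class II antigen presentation gene. Of 21 interferon genes looked for, Ifnb1, which codes for interferon beta, had 389 UMIs in kept cells, 9, 36 and 344 in mice 1, 2 and 3, while Ifnk had 37, Ifng 3 and Ifna2 1. Macrophage-like cells held 243 of the 389 and the H2-Ab1-led cluster 133, nearly all of the latter from mouse 3. At least 1 Ifnb1 UMI was seen in 54 of 189 macrophage-like cells (28.6%, exact Clopper-Pearson 95% interval 22.2% to 35.6%). By mouse the share was 13.0%, 16.4% and 37.8%. In the H2-Ab1-led cluster 16 of 99 cells had one (16.2%, interval 9.53% to 24.9%). By mouse these were 0 of 4, 2 of 21 and 14 of 74 cells. An Ifnb1 UMI was seen in 3 of 395 duct-like and 1 of 987 delta-like cells. In 378 endothelial-like cells none was seen, which allows a share of cells with a UMI of up to 0.794%, and in 1051 beta-like cells none was seen, which allows up to 0.285%. These limits are 3 counts over the number of cells; the upper bounds of the exact interval are 0.971% and 0.350%. Median depth was 7010 UMIs per cell in macrophage-like, 4833 in endothelial-like and 27250 in beta-like cells, and these intervals and limits cover counting error only. T cell markers, a list that includes Cd4 and Il7r, summed to 151, 91.1 and 115 CPM in macrophage-like cells and to 0 in endothelial-like cells. The sum was not split by gene, so it does not show that T cells were present.

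The receptors carry the signal to the members. Of 6 receptor genes, 5 were tested. All 5 were higher in endothelial-, stromal- and macrophage-like cells and 4 in duct-like cells, where 28.7%, 24.6%, 24.6% and 31.6% of all genes were. Their median log2 differences were 2.62, 1.54, 3.66 and 2.03 in that order. Ifngr1, a chain of the interferon gamma receptor, was 255, 282 and 328 CPM in endothelial-like and 16.1, 17.1 and 9.83 in beta-like cells (log2 difference 4.47, SE 0.25, adjusted p = 2.00e-10). Ifnar2, a chain of the type I receptor, was 17.5, 25.0 and 17.3 in beta-like and 49.3, 61.1 and 41.0 in alpha-like cells (-1.45, SE 0.15, adjusted p = 5.63e-11), without overlap. Ifnar1 differed little, at 18.4, 20.9 and 20.4 in beta-like and 25.3, 23.9 and 31.8 in endothelial-like cells (0.73, SE 0.23, adjusted p = 0.00469).

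Of all genes tested, 28.7%, 24.6%, 24.6% and 31.6% were higher in endothelial-, macrophage-, stromal- and duct-like cells, and 31%, 26.7%, 24.6% and 30.9% were lower. The counts below keep that order of classes. Of 8 negative regulators 3, 5, 2 and 3 were higher and 2, 1, 1 and 3 were lower. The stromal-like 2 and duct-like 3 higher lie near the shares of all genes. Socs1, an inhibitor of Janus kinases, was higher in each class (3.93, 4.05, 2.85 and 2.38). Of 50 further interferon-induced genes outside the members, 44 were tested, and 35, 36, 24 and 29 were higher while 1, 0, 0 and 1 were lower, with median log2 differences of 3.99, 4.88, 3.06 and 1.84. Of 18 genes of nucleic acid sensing pathways 15 were tested, and 8, 11, 4 and 7 were higher while 1, 0, 1 and 0 were lower. The stromal-like 4 of 15 lies near the share of all genes. Tmem173, which codes for STING, was higher in each (4.90, 8.21, 5.76 and 7.47). Slfn5 (10.09) and Lgals9 (8.10) in endothelial-like and Ifitm1 (11.61) in stromal-like cells had among the smallest p-values. Among 18 genes known to respond to tissue dissociation, 7, 13, 6 and 10 were higher and 8, 1, 6 and 3 lower in the 4 classes in the same order; their part in the member differences was not tested.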

How the data were processed

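Islet cells of 3 mice were profiled as 3 droplet libraries. The deposited matrices hold raw UMI counts per gene and barcode, made by the authors with Cell Ranger 2.2 on mm10 per the submitters' processing notes, but version 3.1.0 stands in the matrix headers. Kept barcodes had 500 or more genes and no more than 15% of UMIs from mitochondrial genes, with 0.8% of barcodes per 1000 removed as doublets by Scrublet rank (55, 96 and 166). Cells were clustered with scanpy 1.11.5 (20 components, Leiden) on marker genes; 1881 cells stayed unnamed, 99 of them in a cluster led by H2-Ab1. Sums of UMIs over the cells of each mouse and class were tested, for 8 chosen classes, each with 10 or more cells per mouse (acinar-like and Schwann-like cells also reached this but were not in that set and were not tested), with edgeR 4.0.16 (quasi-likelihood, TMM, mouse block). Sums of 1 mouse deviate together: over 1536 genes the correlation of deviations from the class mean was 0.147 to 0.879 within a mouse (median 0.643). Between mice it was -0.820 to 0.340 (median -0.344). Deviations from a mean of 3 mice sum to 0, which pushes the values between mice down, so the gap is no test of pairing. The mouse block was used because the classes come from the same animals. Each library is 1 animal, so p-values cover the spread between animals. A self-test on simulated counts for the endothelial-like comparison was checked first. Every member could be named; values per mouse were given for members passing with at least a 2-fold difference. Members and gene lists were chosen with earlier results of these data known. Gene symbols and IDs are those of the deposited feature list. Alternatives were DESeq2 1.42.0, RLE size factors, no filter on low counts, library size outside hormone genes, no mouse block, thinning and other clusters. Further ones were at least 1000 genes per cell, subtraction of free RNA as estimated from barcodes with under 500 genes, and leaving out each mouse.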

Additional observations from a re-analysis of the deposited data

Results flagged for a closer look

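The unnamed cluster led by H2-Ab1, which entered no comparison, held 133 Ifnb1 UMIs in 99 cells, and 16 of those cells (16.2%) had at least 1. By mouse these were 0, 7 and 126 UMIs from 4, 21 and 74 cells. Nearly all came from mouse 3, which also gave most of the cells. H2-Ab1 codes for a class II antigen presentation chain. The endothelial-like and beta-like classes had no Ifnb1 UMI.

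Barcodes with too few genes to count as cells held 3923 member UMIs, that is 382, 375 and 961 CPM in mice 1, 2 and 3. In mouse 3 this was above the beta-like level of 824 and below the alpha-like level of 1117.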

How the results depend on the processing

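A call was counted as held if its direction and call stayed under every alternative that tested the member. Alternatives in which a member was too low to be tested were passed over. Calls held in this sense for 33 of 35 members in endothelial-like, 27 of 37 in macrophage-like, 25 of 31 in duct-like and 20 of 30 in stromal-like cells. In the beta-alpha, beta-delta and alpha-delta pairs they held for 5 of 13, 7 of 20 and 3 of 11. Thinning to 2000 UMIs tested 31 members and gave 29 higher in endothelial-like, 24 in macrophage-like, 21 in duct-like and 18 in stromal-like cells. These are 93.5%, 77.4%, 67.7% and 58.1% of the members tested, against 27.6%, 18.5%, 23.3% and 21.3% of all genes. In macrophage-like cells 6 members did not pass after thinning. In the endocrine pairs it gave 2 higher and 3 lower (6.45% and 9.68% of the members tested, against 14.7% and 14.7% of all genes), 1 higher and 4 lower (3.23% and 12.9%, against 12.7% and 12.4%), and 1 higher and 3 lower (3.23% and 9.68%, against 11.5% and 11.1%). Far fewer UMIs entered these sums. Thinned differences changed sign for stromal-like Zbp1 (-1.20), Ifi44 (-0.79) and Ddx58 (-0.44), macrophage-like Iigp1 (-0.48), duct-like Ifih1 (-0.41) and Ddx58 (-0.014), and Irgm1 in alpha-like against delta-like cells (0.052). In beta-like against alpha-like cells 3 were higher with DESeq2 and 3 after subtracting free RNA, and 5 were lower with library size outside the hormone genes. That scaling moved the median of all genes from -0.23 to -0.87 in macrophage-like, -0.12 to -0.24 in endothelial-like, -0.10 to -0.21 in stromal-like, -0.01 to 0.16 in beta-like against alpha-like and 0.00 to -0.24 in alpha-like against delta-like cells, and turned macrophage-like Lgals3bp to -0.076. Under it 32 members were still higher and 1 lower in macrophage-like cells, while over all genes 2026 were higher and 6141 lower there.

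With no replicate block for the mouse, 33 members were higher and 2 lower in endothelial-like, 27 and 2 in stromal-like, 36 and 1 in macrophage-like and 29 and 2 in duct-like cells. Without the block the endocrine pairs gave 2 and 7, 3 and 13, and 2 and 6; only the first moved by over 1.5 times.

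Leaving out each mouse in turn gave 31 to 34 members higher in endothelial-like, 23 to 26 in stromal-like, 31 to 37 in macrophage-like and 28 to 29 in duct-like cells. In the pairs it gave 1 to 5 higher and 6 to 8 lower, 1 to 4 and 11 to 15, and 1 to 3 and 4 to 7. The lowest counts of higher members, 1 in each pair, came without mouse 3, and the 4 lower in alpha-like against delta-like cells without mouse 2. Macrophage-like Ifit3b ranged from -4.02 without mouse 3 to 4.35. Summed levels ranged over 686 to 767 CPM in beta-like, 954 to 1068 in alpha-like, 1010 to 1106 in delta-like, 1094 to 1230 in gamma-like, 2986 to 3553 in duct-like, 6820 to 7507 in endothelial-like, 4851 to 5428 in stromal-like and 3374 to 5039 in macrophage-like cells.

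Scaled to all UMIs the summed level was 236 in beta-like, 544 in alpha-like, 755 in delta-like and 541 in gamma-like cells. Without Ifitm2 and Ifitm3 it was 603, 810, 865 and 904 in these classes, 2112 in duct-like, 3743 in endothelial-like and 1825 in stromal-like cells. Subtracting free RNA, as estimated from barcodes with under 500 genes, gave 8136 in endothelial-like and 5930 in stromal-like cells. Depth limits the members near 0 in endocrine cells, whose differences rest on 4 to 43 UMIs. Apart from the thinned sums, the cause of these shifts was not tested.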
